A study of Mus musculus with 4 samples.

Results

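The promoters of 5 genes that are switched on in mature adipocytes, Fabp4, Adipoq, Lep, Lpl and Slc2a4, were examined for DNA methylation in mouse 3T3-L1 cells. They were chosen by position, as all genomic probes of the array that lie, in mm9 coordinates, in chr3:10203000-10213000 (Fabp4), chr16:23141000-23159000 (Adipoq), chr6:29005000-29025000 (Lep), chr8:71399000-71432000 (Lpl) or chr11:69754000-69766000 (Slc2a4). These windows held 41 of the 174638 genomic probes. They formed 5 of the array's 22125 runs of probes no more than 1000 bp apart, 1 run per gene.

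The method was MeDIP-chip: DNA fragments bound by an antibody against 5-methylcytosine (IP, labelled with Cy5) were hybridized beside untreated input DNA (Cy3) on a promoter tiling array. The cells were 3T3-L1, a fibroblast line from mouse embryo that becomes adipocytes under hormones. Control cells were wild type, so no line carried a non-targeting shRNA, and the other line was stably transfected with shRNA8, which targets the lncRNA (long non-coding RNA) slincRAD. Each line gave 1 array at day -2, before induction, and 1 array at day +2, after induction with insulin (167 nM), dexamethasone (1 µM) and the phosphodiesterase inhibitor 3-isobutyl-1-methylxanthine (0.5 mM) in DMEM. The input of shRNA8 cells at day +2 is labelled with that day but also as taken before adipogenesis. It was used as day +2. No group had a replicate, so no difference below has a replicate check or a p-value, and precision is limited by having 1 array each. The barcode entries in the headers number the shRNA8 arrays 1 and 2 and the control arrays 3 and 4, with the same scan time for all, so line and array place cannot be told apart. Each array averages over all cells of a culture, so a large change in few cells and a small one in many cannot be told apart either. RNA was not measured, neither slincRAD nor the 5 genes.

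Differentiating adipocytes turn on a set of effector genes under the transcription factors PPARγ and C/EBPα. Lpl encodes lipoprotein lipase, which frees fatty acids from circulating triglycerides, and Fabp4 encodes a fatty acid carrier of the cytoplasm. Slc2a4 encodes GLUT4, the glucose transporter that insulin brings to the cell surface, while Adipoq and Lep encode the hormones adiponectin and leptin. Methylation of CpG dinucleotides near a gene's start often accompanies silence of the gene, and only DNA that holds methylated cytosine can be bound by the antibody.

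The number of CpGs therefore bears on what the assay can read at a promoter, and the reference sequence is shown for that reason. RefSeq's promoter table (GRCm38.p6), which gives 250 bases before and 50 after a gene's start, held 2 of the 5 genes, Adipoq (chr16:23146286-23146585, + strand) and Lep (chr6:29059971-29060270, + strand). These coordinates belong to GRCm38.p6 and not to the mm9 build of the probes, so the probes were not placed on them. CpGs are in capitals.
Adipoq: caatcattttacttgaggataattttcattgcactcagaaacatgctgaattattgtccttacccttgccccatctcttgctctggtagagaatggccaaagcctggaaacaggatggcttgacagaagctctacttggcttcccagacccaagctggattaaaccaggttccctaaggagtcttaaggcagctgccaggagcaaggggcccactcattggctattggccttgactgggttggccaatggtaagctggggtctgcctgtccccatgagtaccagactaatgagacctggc
Lep: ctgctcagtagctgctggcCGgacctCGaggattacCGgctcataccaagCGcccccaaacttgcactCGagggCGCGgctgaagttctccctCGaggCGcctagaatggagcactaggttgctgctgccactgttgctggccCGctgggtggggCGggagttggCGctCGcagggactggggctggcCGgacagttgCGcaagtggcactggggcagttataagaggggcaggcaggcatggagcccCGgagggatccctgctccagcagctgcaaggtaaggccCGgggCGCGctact

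The Adipoq window held no CpG, as did 5.43% of the 32851 promoters of the same length in the table. The Lep window held 19, with 16 before the start and 3 after it, against a median of 7 per promoter, and 71.9% of promoters had fewer. Its G+C content was 66.0% against a median of 52.7%, and that of Adipoq lay below the median. The CpGs of Lep were 0.59 of the number that its base composition would give. Some short motifs were searched on both strands. CCAAT occurred at 3 places in Adipoq and at 0 in Lep (in 37.4% of promoters). TTGCNNAA, a form of the C/EBP motif, occurred at 1 place in Lep, where it holds a CpG, and at 0 in Adipoq (10.8%). CANNTG occurred at 3 places in Lep and 1 in Adipoq (72.3%). Neither TATAAA (13.6%) nor AGGTCA (16.3%) was found in either.

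**Figure D1:**
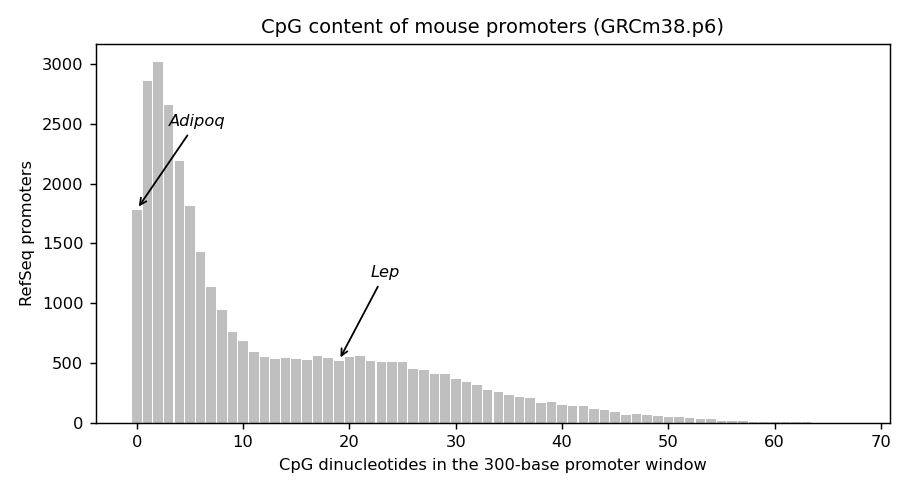
Number of CpG dinucleotides (x axis) in each of the 32851 promoter windows of 300 bases in RefSeq's mouse table, with the number of promoters on the y axis. The arrows mark Adipoq, with 0 CpGs, and Lep, with 19.

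Along the 5 promoters the IP signal had nearly the same shape in all 4 arrays, while the input was dim and less even. Net signals, which are spot signals with the background subtracted in arbitrary units, are given in the order control day -2, control day +2, shRNA8 day -2 and shRNA8 day +2. The median over the 41 probes was 27.1, 26.5, 29.2 and 32.2 in IP, below the array medians of 49.1, 48.9, 56.1 and 56.5. In input it was 5.66, 5.42, 4.85 and 7.14, against 6.49, 5.95, 8.64 and 8.78 for the whole array. Input exceeded background in all 4 arrays at 19 of the 41 probes (46.3%), compared with 54.4% of all probes, where that count also leaves out spots marked as poor, none of them in the 5 promoters. The IP exceeded background in all 4 arrays at 34 of the 41 probes, and at 86.5% of all probes. The ratio of IP to input below uses the 19 probes, which lay in every one of the 5 promoters.

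**Figure D2:**
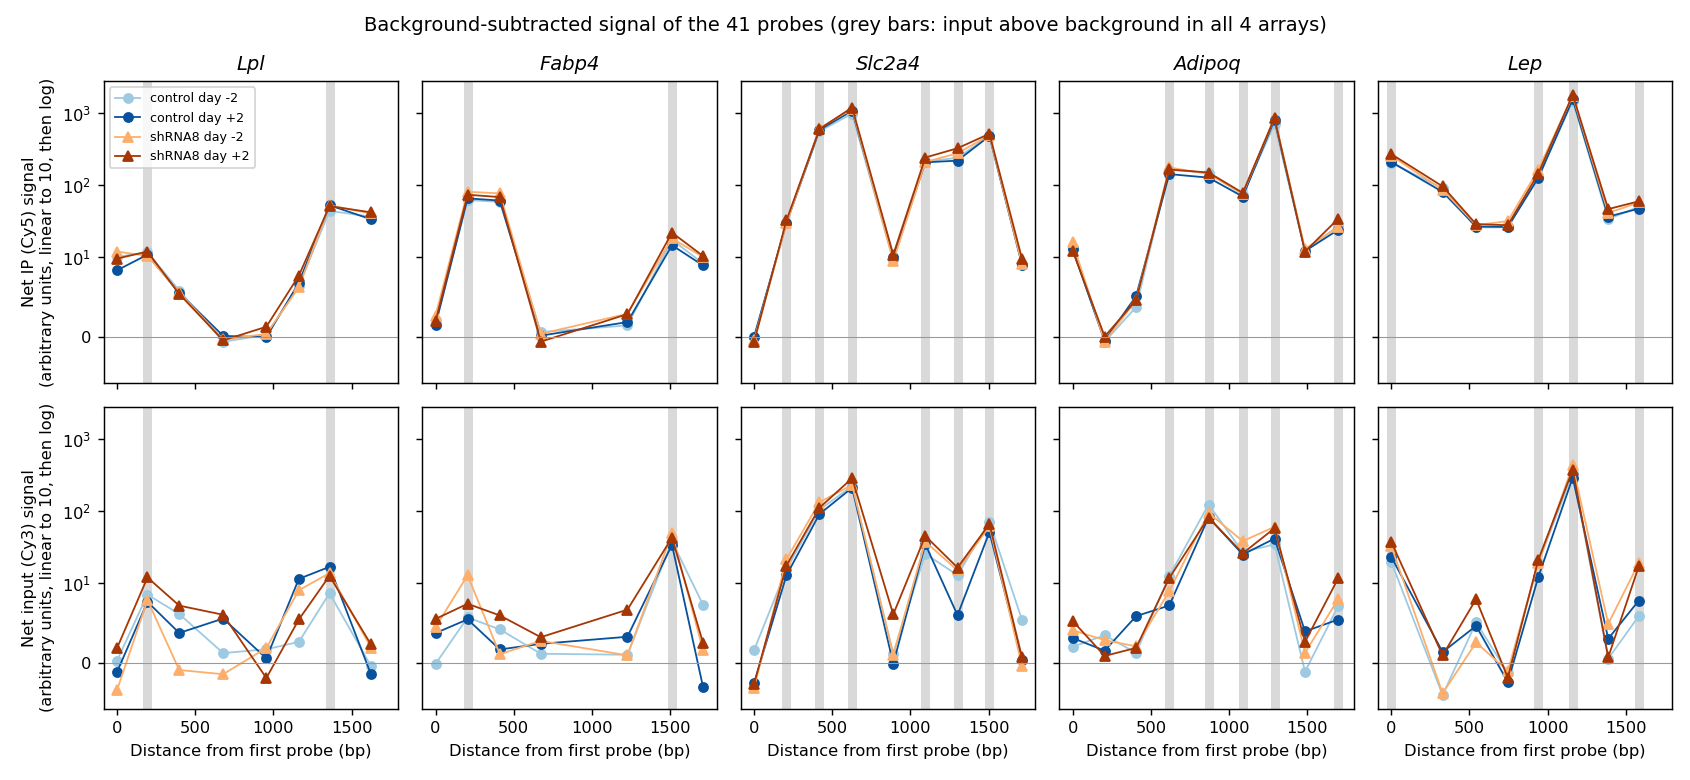
Net IP signal (top row) and net input signal (bottom row) of each probe in the 4 arrays, against its distance in bp from the leftmost probe of the promoter; the y axis is linear up to 10 and logarithmic above. Grey bars mark the 19 probes with input above background in all arrays, and the IP profiles of the 4 arrays lie close together while the input profiles scatter around background at the other 22.

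The promoters of the lipid genes were the dimmest. At Lpl, 2 of 8 probes passed, and at Fabp4 2 of 7, so neither reached the 3 probes asked of a region. Lpl probe chr8:71404525-71404569 had net IP signals of 43.9, 52.4, 52.2 and 51.0 and net inputs of 8.68, 16.7, 13.6 and 12.5, in the same order of arrays. Control cells at day -2 were thus the lowest in both channels. Fabp4 probe chr3:10208310-10208354 had 62.0, 65.4, 80.9 and 73.5 in IP and 5.66, 5.42, 12.7 and 7.37 in input, so that shRNA8 cells at day -2 were the highest in both channels. At Fabp4 probe chr3:10209617-10209669 the input was the brighter channel before dye normalization, with 37.9, 33.8, 48.9 and 42.6 against 17.3, 14.5, 18.1 and 21.8 in IP.

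The glucose transporter and hormone promoters gave more. Slc2a4 kept 6 of 9 probes, Adipoq 5 of 9 and Lep 4 of 8, and each formed 1 region. The brightest of all 41 probes was Lep chr6:29010124-29010168, with net IP signals of 1498, 1566, 1751 and 1814 and inputs of 337, 292, 430 and 376. In Slc2a4 the brightest probe was chr11:69761820-69761864, with IP signals of 991, 1084, 1155 and 1205 and inputs of 221, 210, 230 and 285. In Adipoq it was chr16:23146604-23146648, with IP signals of 709, 811, 863 and 862 and inputs of 34.2, 41.2, 60.2 and 57.5. At all 3 probes both shRNA8 arrays lay above both control arrays in IP, as did the array medians of IP given above, and the signals in this paragraph were not scaled between arrays.

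Ratios of processed IP to processed input were taken per probe on the log2 scale, centred on the array median and quantile normalized, so that 0 stands for the typical probe of an array. The mean over probes was -1.10, -1.51, -1.16 and -1.39 at Lpl and -1.37, -1.39, -1.73 and -1.20 at Fabp4, in the order control day -2, control day +2, shRNA8 day -2 and shRNA8 day +2. It was 0.01, 0.18, 0.12 and 0.09 at Slc2a4, -0.21, -0.10, -0.04 and -0.07 at Adipoq, and 0.23, 0.21, 0.10 and -0.03 at Lep. Before centring, the means of the processed ratio were -0.77, -1.21, -0.87 and -1.06 at Lpl, -1.01, -1.07, -1.42 and -0.91 at Fabp4, 0.37, 0.54, 0.42 and 0.35 at Slc2a4, 0.14, 0.25, 0.25 and 0.19 at Adipoq and 0.60, 0.57, 0.39 and 0.24 at Lep. In the control arrays the order from high to low was Lep, Slc2a4, Adipoq, and in the shRNA8 arrays it was Slc2a4, Lep, Adipoq. This exchange of Lep and Slc2a4 depended on the processing. Without the input filter Lep lay above Slc2a4 in the shRNA8 arrays too (0.87 against -0.19 at day -2 and 0.79 against -0.26 at day +2), as it did with input well above background and with medians of probes. Without background subtraction Slc2a4 lay above Lep in all 4 arrays. Lpl and Fabp4 were lowest in all 4 arrays and exchanged places between the days. That exchange depended on the processing too. With loess normalization within arrays Fabp4 was lowest in all 4 arrays, and without background subtraction Lpl was. Without the input filter Fabp4 was below Lpl in shRNA8 cells at both days. The SD over probes was 0.45 to 0.73 at Lep, 1.05 to 1.30 at Slc2a4, 1.53 to 1.67 at Adipoq, 0.76 to 1.45 at Lpl and 2.92 to 3.34 at Fabp4. Neighbours in this order differed by less than the larger of their SDs over probes in every array. The low Fabp4 mean came from 1 of its 2 passing probes. Probe chr3:10209617-10209669 read -3.67, -3.75, -3.80 and -3.48, while chr3:10208310-10208354 lay above 0, at 0.94, 0.97, 0.34 and 1.08.

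Set among the 17452 regions of at least 3 probes, the 3 promoters that formed a region lay in the middle to upper part. The share of regions with a lower ratio was 72.1%, 70.9%, 65.8% and 58.4% for Lep, 61.5%, 69.6%, 67.0% and 64.2% for Slc2a4, and 49.7%, 55.0%, 58.4% and 56.0% for Adipoq, in the same order of arrays. These places were taken for the main processing only, and the levels depended on it. Without the input filter Slc2a4 lay at -0.32, -0.095, -0.19 and -0.26 and Adipoq at -0.55, -0.635, -0.39 and -0.51. Lep then lay at 0.82, 0.78, 0.87 and 0.79. With medians of probes Adipoq lay at -0.59, -0.47, -0.60 and -0.83. A ratio of this kind is not a share of methylated molecules, since it also follows the number of CpGs and the probe's own properties.

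Within each promoter but Lep the probes differed more than the arrays did. In Adipoq, probe chr16:23146182-23146241 read -2.32, -2.04, -1.74 and -1.72, and the probe at chr16:23146604-23146648 read 1.77, 1.53, 1.49 and 1.59. In Slc2a4, probe chr11:69761400-69761444 read -1.54, -1.40, -1.88 and -1.57, while chr11:69762494-69762538 read 1.66, 2.51, 1.88 and 1.97. In neither gene did the 2 probes overlap in any array. The probe means over the 4 arrays spanned 3.55 in Adipoq, 3.60 in Slc2a4, 4.51 in Fabp4, 1.61 in Lpl and 0.86 in Lep on the log2 scale. A single probe moved by at most 0.83, 0.85, 0.74, 0.76 and 1.26 over the arrays in the same genes, so in Lep alone did a probe move by more than the span along the promoter. Across the 19 probes the ratio of any 2 arrays correlated with Pearson's r of 0.942 to 0.978, beside 0.935 to 0.951 over all passing probes. Such an r describes probes that share their base composition on every array.

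Probe length moved with these levels. The 3 passing probes of 53 to 60 bp, 1 each in Lpl, Fabp4 and Adipoq, had mean ratios of -3.68 to -1.95, and the 15 of 45 to 46 bp had -1.60 to 2.01. Over all passing probes of the array the medians were -0.56 and 0.06 for these lengths. The input filter kept 3 of the members' 12 long probes and 15 of the 22 short ones, where it kept 26.7% and 71.5% of all probes of these lengths. The part of length in the order of the promoters was not tested. Lep and Slc2a4 had no probe longer than 48 bp.

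**Figure D3:**
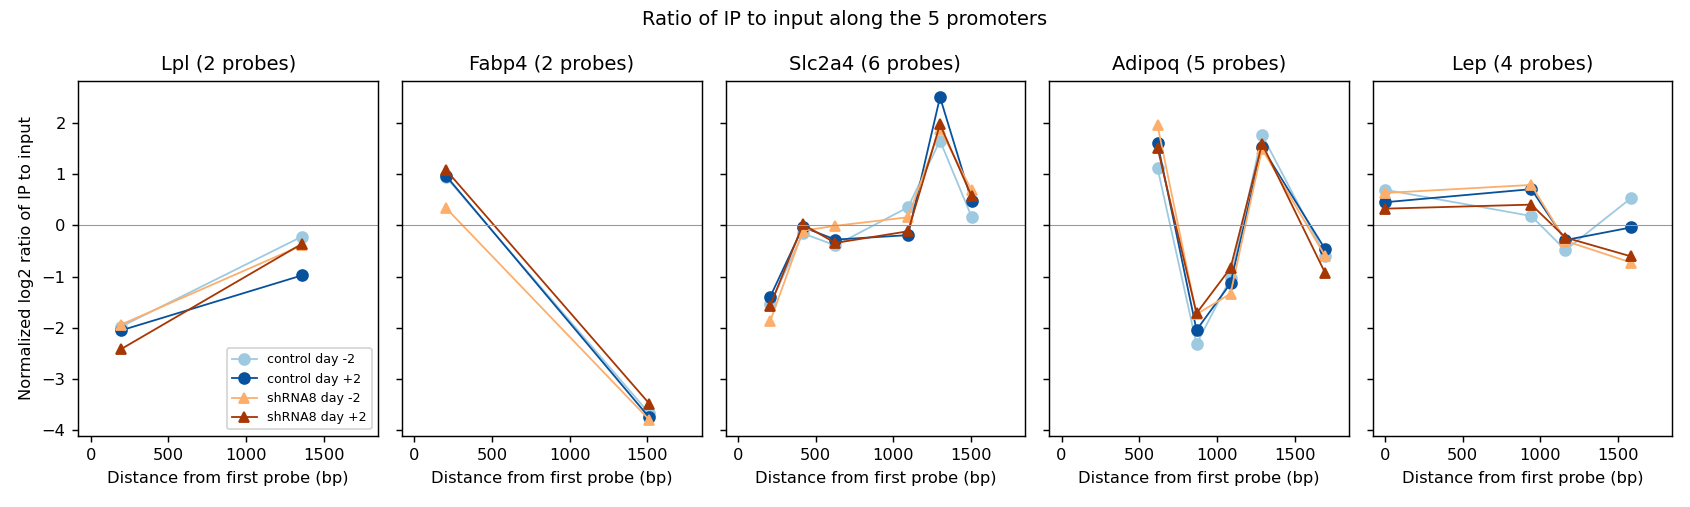
Normalized log2 ratio of IP to input (y axis) at the passing probes of each promoter, against distance in bp from the promoter's leftmost probe; each line joins the probes of 1 array. The spread along Fabp4, Adipoq and Slc2a4 (4.51, 3.55 and 3.60) is wider than that between arrays at any of their probes.

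Before induction, at day -2, the comparison of shRNA8 with control cells asked whether knockdown cells start with other methylation at these genes. No promoter region differed by the size rule, which asks that the mean over probes change by 0.6 or more in log2 (1.52-fold) and that at least 75% of the probes move that way. The count was 0 of 3 regions, where 2.43% of all regions passed. The mean difference was 0.11 ± 0.33 (SD over 6 probes) at Slc2a4, 0.17 ± 0.52 (5 probes) at Adipoq and -0.13 ± 0.80 (4 probes) at Lep. It was -0.07 ± 0.15 at Lpl and -0.37 ± 0.34 at Fabp4, over 2 probes each. The Fabp4 value exceeded the SD over its probes, and the other 4 did not. Without the input filter, over 7 probes, the Fabp4 value was 0.20, and without background subtraction it was 0.04. Over the 19 probes the median difference was -0.01, with 9 higher and 10 lower, beside 0.02 over all probes. The authors' software deposits an error for each log ratio. Of the 19 probes 6 (31.6%) differed by more than the combined error of both spots, against 26.9% of all probes, and 0 by more than 2 times that error, against 5.68%. Neither Fabp4 probe was among the 6.

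The most negative of these probe differences was at Lep. Probe chr6:29010546-29010590 read 0.53 in control and -0.72 in shRNA8 cells at day -2, a difference of -1.26 with a combined error of 0.65. Its net input was 5.81 in control and 18.8 in shRNA8 cells, and its net IP 49.96 and 57.3, so the input channel was the one that moved. At day +2 the same probe differed by -0.57, with a net input of 7.76 against 16.9. The other 3 probes of Lep differed by -0.06, 0.61 and 0.18 at day -2. At Adipoq, probe chr16:23145931-23145979 was higher in shRNA8 cells by 0.83 (combined error 0.47) at day -2 and differed by -0.09 at day +2.

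At day +2 the comparison of the lines asked whether they differ once differentiation is under way. Again 0 of 3 regions passed the size rule, where 3.34% of all regions did. The difference was -0.09 ± 0.24 at Slc2a4, 0.03 ± 0.32 at Adipoq and -0.24 ± 0.26 at Lep. The Lep value was 0.01 without the input filter and 0.04 without background subtraction. At Lpl it was 0.13 ± 0.69, from probes that read -0.37 and 0.62. At Fabp4 it was 0.19 ± 0.11, from probes at 0.11 and 0.27. It was -0.15 without the input filter, over 7 probes, and 0.38 with loess normalization within arrays. The median over the 19 probes was 0.05, with 10 higher and 9 lower, beside 0.04 over all probes. More than the combined error separated the lines at 2 probes (10.5%, against 31.5% of all probes), and more than 2 times that error at 0 (7.48%). The SD of the differences was 0.31 over these 19 probes and 0.57 over all probes.

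The days were compared in control cells, day +2 minus day -2, to see what differed after induction. No region passed the size rule (0 of 3, against 2.09% of all regions). Slc2a4 differed by 0.17 ± 0.45 with 5 of 6 probes higher, Adipoq by 0.11 ± 0.29 and Lep by -0.02 ± 0.48. Lpl differed by -0.42 ± 0.48 over its 2 probes, both lower, and Fabp4 by -0.03 ± 0.07. The Lpl value rested on chr8:71404525-71404569, which read -0.22 at day -2 and -0.98 at day +2 with a net input of 8.68 and 16.7. Without background subtraction the Lpl difference was 0.12. In Slc2a4, chr11:69762494-69762538 read 1.66 and 2.51, with a net IP of 240 and 219 and a net input of 12.7 and 5.93. The median of the 19 probes was 0.11, with 11 higher and 8 lower, beside -0.01 over all probes. The combined error was exceeded at 6 probes (31.6%, against 23.5% of all probes), and 2 times that error at 0 (4.08%).

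In shRNA8 cells the same days were compared. The size rule was met by 0 of 3 regions, against 3.19% of all. The differences were -0.03 ± 0.25 at Slc2a4, -0.03 ± 0.37 at Adipoq and -0.13 ± 0.26 at Lep, all within the SD over their probes. Lpl differed by -0.22 ± 0.36. Fabp4 differed by 0.53 ± 0.30, from 0.74 at chr3:10208310-10208354 and 0.32 at chr3:10209617-10209669, and it has too few probes for a region. The probe with 0.74 had a combined error of 0.53, and its net input was 12.7 at day -2 and 7.37 at day +2. This value and the Fabp4 difference between the lines at day -2 share the shRNA8 array of day -2. Without the input filter, over 7 probes, the Fabp4 value was -0.23, without background subtraction it was 0.07, and with input well above background, over 1 probe, it was 0.23. The median over the 19 probes was 0.03, beside 0.02 over all probes, with 11 higher and 8 lower. The combined error was exceeded at 4 probes (21.1%, against 26.7% of all), and 2 times that error at 0 (5.2%).

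Over the 4 comparisons, which reuse the same 4 arrays, the 3 regions gave differences from -0.24 to 0.17. Of the 20 promoter differences 3 exceeded their SD over probes, all 3 at Fabp4, where the SD comes from only 2 probes. By size of the ratio difference the regions ranked low to middle: 8.47% to 63.8% of all regions differed by less. In the IP channel alone, described below, some ranked higher, up to 92.4%.

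**Figure D4:**
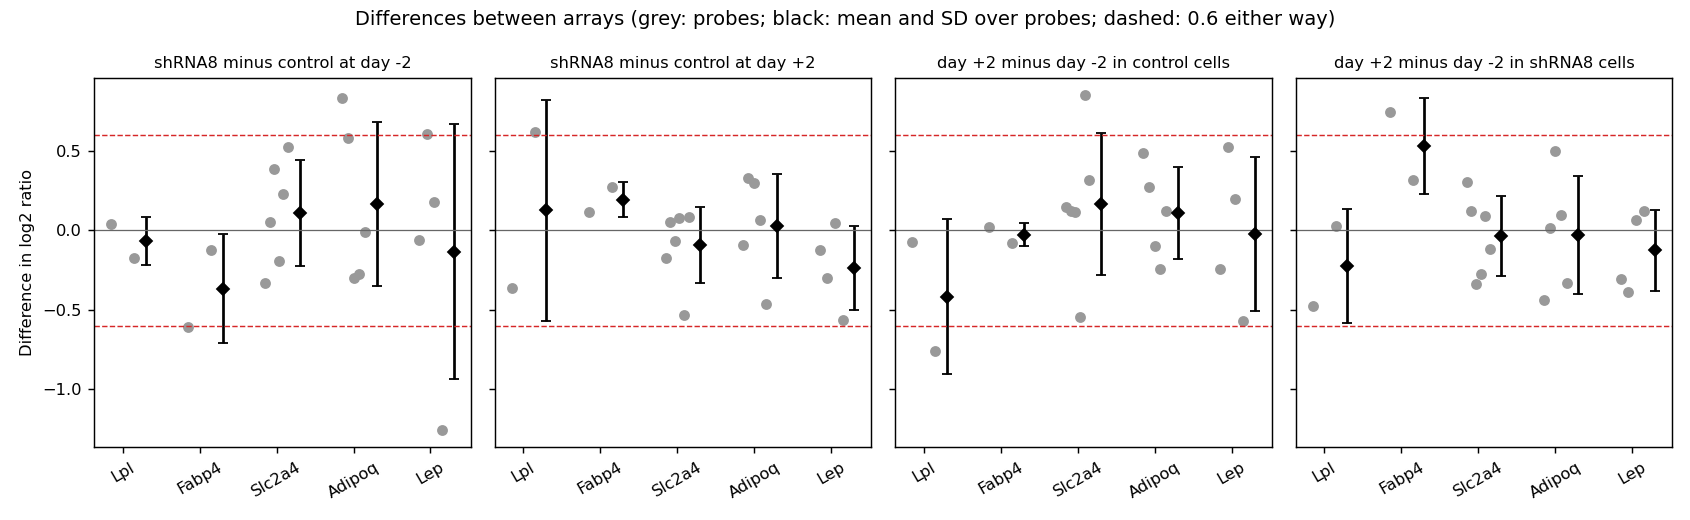
Difference in normalized log2 ratio (y axis) in the 4 comparisons; grey points are single probes, black diamonds and bars the mean and SD over the probes of a promoter, which is not a spread between replicates. Dashed lines mark 0.6 either way, and all 20 means lie between them, from -0.42 to 0.53.

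The channels were also compared apart, each centred on its array median. At the 19 probes the input differences had an SD of 0.36 to 0.53 in the 4 comparisons, and the IP differences 0.13 to 0.17. Over all passing probes of the array these SDs were 0.51 to 0.57 and 0.11 to 0.14. In each comparison the 19 probes thus spread less than all probes in input and more in IP, and the wider spread of input was not particular to them. At the 19 probes input made up 84.4% to 92.4% of the summed variance of both channels. It moved more than the IP at 14 to 16 of the 19 probes in each comparison. The mean IP difference of a promoter lay between -0.18 and 0.18 in the 4 comparisons, and between -0.12 and 0.12 for the 3 regions. At Lep it was 0.12 ± 0.09 between the lines at day -2, with an input difference of 0.27 ± 0.74. Over all 8 Lep probes with IP above background that IP difference was 0.06 ± 0.14, within its SD. At Adipoq it was -0.12 ± 0.18 in that comparison and -0.12 ± 0.16 between the days in control cells. Over the 8 Adipoq probes with IP above background these values were -0.04 ± 0.18 and -0.01 ± 0.23. At Slc2a4 it ranged from -0.08 ± 0.09 (the lines at day -2) to 0.06 ± 0.12 (the days in shRNA8 cells). By size of IP difference on the passing probes, Lep stood above 92.3% of all regions between the lines at day -2, and Adipoq above 91.1%. Between the days in control cells Adipoq stood above 92.4%. The other region values stood above 6.46% to 79.2%. With all 34 probes whose IP was above background, the mean IP difference of a promoter ranged from -0.15 to 0.10. The SD over all 150781 such probes of the array was 0.14 to 0.17, which is a spread of single probes and not of promoter means. Whether differences of this size in IP exceed those between cultures was not tested, as no group had a replicate.

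**Figure D5:**
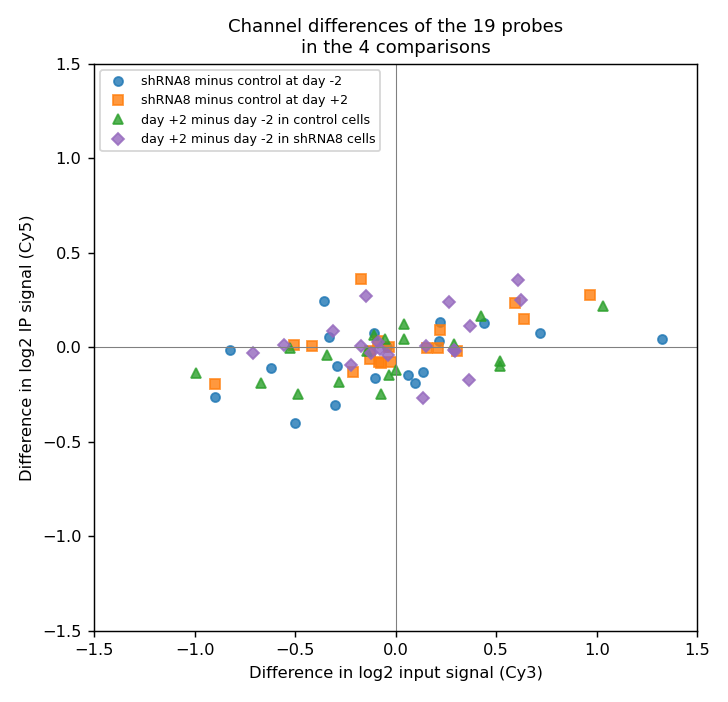
Difference in log2 IP signal (y axis) against difference in log2 input signal (x axis) for the 19 probes in each of the 4 comparisons, with both axes on the same scale. The points spread along the input axis, from -0.99 to 1.33, and stay between -0.40 and 0.36 along the IP axis.

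The regions whose 4 values were nearest to those of a member were found by Euclidean distance over the 4 arrays. For Slc2a4 it was chr1:135165887-135167262 at a distance of 0.03, with means of 0.03, 0.16, 0.14 and 0.10. For Adipoq it was chr15:43307787-43309156 at 0.04, and for Lep chr12:105101536-105103024 at 0.05. There were 602, 685 and 429 regions within 0.25 of them, so many regions had values as near as this. Other adipocyte genes were not analysed here, because no file pairs mm9 positions with genes.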

How the data were processed

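The 4 deposited tables were written by Agilent's Feature Extraction software, version 11.0.1.1, with mm9 positions, per the file headers. The deposited intensity columns hold spot, background, background-subtracted and dye-normalized processed signals, and the deposited log10 ratio comes with an error, which was converted to log2. The submitters' processing notes name limma without its role. Spots marked as saturated, non-uniform or outlying in any array were dropped (174301 of 174638 kept), as were probes with input not above background in all 4 arrays, which left 95060. Ratios were median centred and quantile normalized. Regions needed 3 probes with gaps up to 1000 bp. The region step was tested on simulated data. The members, lists and rules were chosen with earlier results of these data known. The 5 genes were all named, with the nearest region for each that formed one. Alternatives were median centring alone, limma's within-array loess, other filters and size rules, no background subtraction, medians of probes and whole windows. Regions of at least 2 probes were tried too, an alternative chosen after seeing the data. Python 3.11.15, numpy 2.4.6, pandas 2.3.3, matplotlib 3.10.9, R 4.3.3 and limma 3.58.1 were used.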

Additional observations from a re-analysis of the deposited data

Results flagged for a closer look

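At Fabp4 the line difference had opposite signs at the 2 days, and each value exceeded the SD over its probes. It was -0.37 at day -2 and 0.19 at day +2, over the same 2 probes. The difference between these values was not tested, with 1 array per group. An SD over 2 probes says only how near these lie to each other. Neither probe differed between the lines by more than its combined deposited error, at day -2 or at day +2. Without the input filter, over all 7 probes, the values were 0.20 and -0.15, so both signs turned. Without background subtraction they were 0.04 and 0.13.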

How the results depend on the processing

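The number of promoter regions past the size rule was 0 in all 4 comparisons under each of the 10 alternatives run. Among these, a size of 1 and whole windows could give no other count, so they are no check of it. A size of 1 is stricter than the main rule, which already gave 0. Whole windows gave the same regions with the same passing probes as the main run. The counts at a size of 0.4 and for windows of at least 2 probes followed from the main differences. Those ran from -0.24 to 0.17 for the regions and from -0.42 to 0.53 for all 20 promoter differences. These 2 settings are therefore no separate check either. A count of 0 also says little where few regions of the array passed. Without background subtraction 0.0057% to 0.0802% did, and 0.155% to 0.521% did at a size of 1. With input well above background, where 2 promoters formed a region, 0.359% to 1.00% did. At a size of 0.4 the share was 7.43% to 10.3%, and with loess it was 5.42% to 6.68%. Without the input filter, where all 5 promoters formed a region, it was 1.15% to 2.49%. It was 2.35% to 3.51% with median centring alone and 1.805% to 2.95% with medians of probes. For whole windows and for windows of at least 2 probes no share over the array was computed. The median difference over the member probes moved by less than the SD over probes in all 24 recomputed values, which ranged from -0.07 to 0.12, and its sign turned in 7. The 20 promoter differences were recomputed under 6 of the alternatives, and those of Lpl under 5. Of the 20, 4 kept their sign in every recomputation and 16 did not. Those 4 were Slc2a4 between the lines at day -2 (0.003 to 0.14) and between the days in control cells (0.0008 to 0.23), Lep between the days in control cells (-0.10 to -0.02) and Lpl between the days in shRNA8 cells (-0.41 to -0.07). Of 116 recomputed promoter differences, 12 moved by more than the SD over probes, 5 of them without background subtraction and 4 without the input filter. Of 116 recomputed levels, the sign turned in 14, and 4 moved by more than the SD over probes, all at Lep without the input filter. In control day -2, control day +2, shRNA8 day -2 and shRNA8 day +2, Lep then lay at 0.82, 0.78, 0.87 and 0.79. In the main run it lay at 0.23, 0.21, 0.10 and -0.03. With input well above background no Lpl probe was left, so that setting gives no Lpl value. The cause of these moves was not tested. A dim input limits the depth: at 22 of 41 probes it was not above background in every array.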
